A study of Mus musculus with 9 samples.

Results

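Toll-like receptors were followed in microglia, the macrophages that reside in brain tissue, as the 10 genes Tlr1 to Tlr9 and Tlr13. Each was the 1 gene symbol of a probe set in the deposited values, and all 10 were measured among 22180 genes tested. Every member had 1 probe set, so no choice between probe sets was needed. The microglia had been sorted by FACS from brains of female C57Bl/6 mice aged 24 to 28 weeks, and each of 3 groups held 3 arrays. The first group was wild type. The second, FAD, carried a 5X familial Alzheimer's disease background, in which transgenes lead to amyloid plaques, and floxed alleles of Hdac1 and Hdac2 (Hdac1/2fl/fl). The third, FAD DKO, carried the same and also Cx3cr1CreERT2, a tamoxifen-dependent Cre recombinase expressed from the fractalkine receptor gene, which acts in microglia and other cells that use that gene. All mice had received 8 mg tamoxifen at 6 weeks of age, the wild type included. FAD DKO differed from FAD in the Cre allele as well as in the deletion, so the parts of both cannot be told apart, and FAD differed from wild type in the floxed alleles as well as in the transgenes.

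Toll-like receptors are membrane proteins that recognise conserved molecules of microbes and some molecules released by damaged tissue. Those on the cell surface (Tlr1, Tlr2, Tlr4, Tlr5, Tlr6) bind lipids, lipoproteins and flagellin, and those in endosomes (Tlr3, Tlr7, Tlr8, Tlr9, Tlr13) bind nucleic acids. They signal through the adaptors Myd88 and Ticam1 to NF-kB, AP-1 and interferon regulatory factors, which switch on cytokine and chemokine genes. In microglia, Tlr2, Tlr4 and Tlr6 are known as part of the machinery that senses aggregated amyloid, together with Cd14 and Cd36.

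The arrays had medians between 5.346 and 5.398 on the deposited log2 scale, and their number limits the precision. Hdac1 and Hdac2 lay lower on every FAD DKO array than on every FAD and wild type array, so the targeted genes went against no label, although whether these probes cover the deleted exons is unknown. None of these differences passed the test described below (limma adjusted p from 0.0702 to 0.376). Cx3cr1, whose locus carries the Cre allele, also lay lower on every FAD DKO array. It stood at -0.25 against FAD and -0.33 against wild type (limma adjusted p = 0.383 and 0.133). The group means of 9 microglial markers ran from 9.22 for Tmem119 in FAD to 12.20 for Cx3cr1 in wild type, all above the median of all probe sets (5.35). Centred per gene, the mean of these 9 lay at 0.065, 0.0831 and 0.101 on the wild type arrays. It lay at -0.0645, -0.0106 and -0.0022 on the FAD arrays, and at -0.0228, -0.031 and -0.118 on the FAD DKO arrays. Markers of monocytes and neutrophils were also present, with means over the 9 arrays of 10.27 for S100a8, 9.76 for S100a9 and 7.89 for Camp, while Ly6g stood at 4.43 and Mpo at 4.99. The mean of the 10 measured monocyte and neutrophil markers, centred per gene, lay at -0.43, 0.13 and 0.04 on the wild type arrays, 0.20, 0.23 and 0.12 on the FAD arrays, and -0.96, 0.65 and 0.03 on the FAD DKO arrays. These cells carry several of the receptors too, and their part in the values below was not tested. In RNA from a sorted population, fewer cells that express a gene and less RNA per cell cannot be told apart.

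No member was called in any comparison. Differences were tested with limma over all 22180 genes, and a gene was called at a Benjamini-Hochberg adjusted p under 0.05. In FAD against wild type 0 of 10 members were called, against 0.0406% of all genes, and 1 (Tlr2) had an unadjusted p under 0.05, against 8.43% of all genes. For FAD DKO and FAD 0 of 10 were called, against 0.0225% of all genes, and 1 (Tlr13) had an unadjusted p under 0.05, against 8.1%. In FAD DKO against wild type 0 of 10 were called, against 0.14%, and 1 (Tlr13 again) had an unadjusted p under 0.05, against 8.14%. A missed threshold does not show equality, so the 95% intervals of the differences are given. In each comparison the interval of all 10 members lay within a 1.5-fold change in either direction. The bounds farthest from 0 were 0.47 on the log2 scale (1.38-fold) for Tlr1 in FAD against wild type, -0.44 (1.35-fold) for Tlr1 in FAD DKO against FAD, and 0.40 (1.32-fold) for Tlr2 in FAD DKO against wild type. These intervals are per gene and are not adjusted for the number of genes. They concern the signal of a probe set in the sorted population and do not bound a change of the transcript. This holds most for Tlr8, whose probe set was dim.

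**Figure D1:**
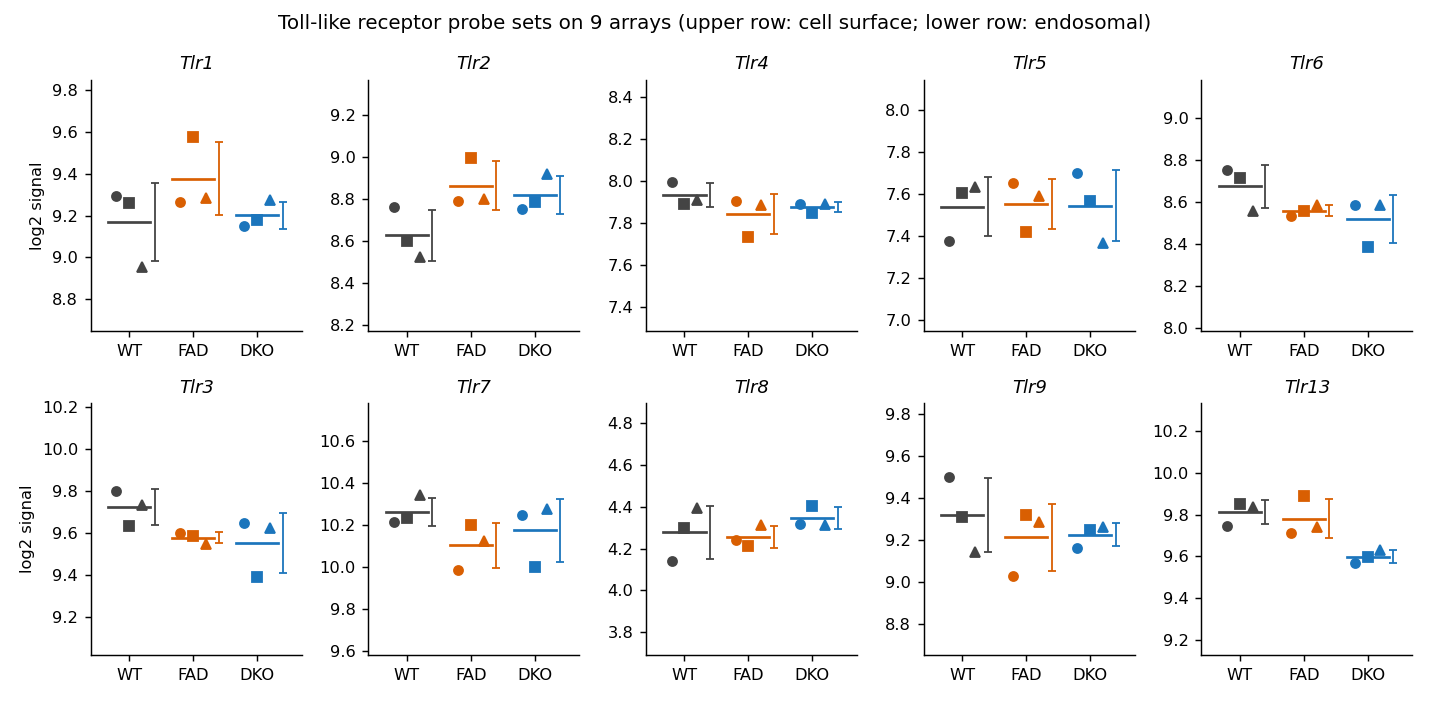
The log2 signal of each receptor's probe set (vertical axis, a window of 1.2 log2 units in each panel) is plotted for wild type (WT), FAD and FAD DKO (DKO) arrays, with circles, squares and triangles for replicates 1, 2 and 3, a line at the group mean and a bar of 1 SD beside it (n = 3). The groups overlap in most panels, and the 3 FAD DKO arrays lie below all others for Tlr13.

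Tlr2, which pairs with Tlr1 or Tlr6 to bind bacterial lipoproteins, had the smallest p in FAD against wild type, and Tlr13, an endosomal receptor for bacterial ribosomal RNA, had it in both comparisons with FAD DKO. Their promoters are shown for that reason, and one of the Tlr6 promoters because it alone held an interferon-stimulated response element. The windows are from RefSeq (GRCm38.p6), which gave 10 windows for 8 of the 10 members, with none matched for Tlr4 and Tlr7, and each runs from 250 bases before a transcript start to 50 after it. Capitals mark, on either strand, the core AGGAAG bound by the macrophage factor PU.1 and the interferon-stimulated response element (the AP-1 motif TGANTCA, also searched, had no match in these 3 windows). They are, 5′ to 3′ on the gene's strand, Tlr2 at chr3:83841559-83841858 (minus strand), Tlr13 at chrX:106143025-106143324 (plus strand) and Tlr6 at chr5:64959117-64959416 (minus strand).
Tlr2: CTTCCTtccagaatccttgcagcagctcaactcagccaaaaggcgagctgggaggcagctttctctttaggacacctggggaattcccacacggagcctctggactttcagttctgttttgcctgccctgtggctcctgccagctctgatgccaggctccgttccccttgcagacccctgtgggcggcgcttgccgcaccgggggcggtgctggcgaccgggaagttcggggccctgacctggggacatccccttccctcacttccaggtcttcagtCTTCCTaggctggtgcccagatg
Tlr13: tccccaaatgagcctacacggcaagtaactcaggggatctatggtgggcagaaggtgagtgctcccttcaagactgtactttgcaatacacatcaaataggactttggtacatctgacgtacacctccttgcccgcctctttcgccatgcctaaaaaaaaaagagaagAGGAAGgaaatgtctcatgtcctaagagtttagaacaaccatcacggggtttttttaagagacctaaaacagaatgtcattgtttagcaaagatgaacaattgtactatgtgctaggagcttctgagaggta
Tlr6: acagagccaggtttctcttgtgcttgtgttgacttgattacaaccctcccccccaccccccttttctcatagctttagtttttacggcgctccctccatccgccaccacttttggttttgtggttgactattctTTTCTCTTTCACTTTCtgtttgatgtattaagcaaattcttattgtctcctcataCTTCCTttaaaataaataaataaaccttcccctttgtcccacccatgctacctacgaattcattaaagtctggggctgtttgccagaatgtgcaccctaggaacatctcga
The core AGGAAG stood in 6 of the 10 windows, against 35.4% of all 32851 promoter windows. The interferon element stood in 1 of 10, as a pair of overlapping matches that share bases, against 3.44% of all windows, and the AP-1 motif in 1 of 10 (Tlr9), against 7.81%. A match describes these letters only and says nothing of binding.

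Among the surface receptors, Tlr2 was the one that lay apart in FAD. Its log2 signal was 8.76, 8.60 and 8.52 on the wild type arrays, 8.79, 8.998 and 8.80 on the FAD arrays and 8.75, 8.79 and 8.92 on the FAD DKO arrays (replicates 1, 2 and 3 in each group). Every FAD array was above every wild type array, as for 6.37% of all genes, the nearest pair being 8.79 and 8.76, while the FAD DKO arrays overlapped both groups. The difference between FAD and wild type was 0.24 (SE 0.0918), or 1.18-fold, which did not pass the test (limma, unadjusted p = 0.0305, adjusted p = 0.557). It was 0.17 without FAD replicate 2 and 0.30 without wild type replicate 1. FAD DKO stood at 0.19 against wild type (adjusted p = 0.647) and at -0.04 against FAD, with a 95% interval from -0.25 to 0.16 for the latter.

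Tlr1 and Tlr6, the partners of Tlr2, are neighbouring genes in the RefSeq gene order. Tlr1 read 9.29, 9.26 and 8.95 on the wild type arrays, 9.26, 9.58 and 9.29 on the FAD arrays and 9.15, 9.18 and 9.27 on the FAD DKO arrays. The single FAD array at 9.58 was above all others and the wild type array at 8.95 was below all others, so the groups overlapped. The difference of FAD from wild type was 0.21 (adjusted p = 0.674), and it was 0.10 without wild type replicate 3 and 0.11 without FAD replicate 2. FAD DKO gave -0.17 against FAD, which was -0.07 without FAD replicate 2. Tlr6 read 8.75, 8.71 and 8.56 on the wild type arrays, 8.53, 8.56 and 8.58 on the FAD arrays and 8.58, 8.38 and 8.58 on the FAD DKO arrays. Its FAD arrays stood within 0.0497 of each other, and 3 arrays (FAD 3, FAD DKO 1 and FAD DKO 3) carried the same deposited value. The differences of Tlr6 from wild type were -0.12 in FAD (adjusted p = 0.74) and -0.16 in FAD DKO (adjusted p = 0.675). Leaving out wild type replicate 1 gave -0.08 for the first and leaving out wild type replicate 3 gave -0.17, and the second was -0.09 without FAD DKO replicate 2. Tlr2 and Tlr1 were each highest in FAD replicate 2 and lowest in wild type replicate 3, which held for no other member.

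Tlr4, the receptor for bacterial lipopolysaccharide, was among the steadiest members. It read 8.00, 7.89 and 7.91 on the wild type arrays, 7.91, 7.73 and 7.89 on the FAD arrays and 7.89, 7.85 and 7.89 on the FAD DKO arrays. Its SD within groups, 0.0656, was smaller than that of all but 12% of genes, and the groups overlapped in each comparison. The differences were -0.09 for FAD against wild type (95% interval from -0.25 to 0.07), 0.04 for FAD DKO against FAD and -0.06 for FAD DKO against wild type. Without FAD replicate 2 the first was -0.04 and the next -0.02, and without wild type replicate 1 the first was -0.06 and the last -0.02. Tlr5, which binds flagellin, read 7.38, 7.60 and 7.63 on the wild type arrays, 7.65, 7.42 and 7.59 on the FAD arrays and 7.70, 7.57 and 7.36 on the FAD DKO arrays. Each genotype spanned nearly the same range for Tlr5, and its 3 differences lay between -0.01 and 0.01, with adjusted p from 0.984 to 0.994. Their intervals were wider than those of Tlr4, reaching from -0.24 to 0.27 in FAD against wild type.

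Of the endosomal receptors 5 of 5 had differences below 0 in FAD against wild type (52.1% of all genes did), although Tlr8 was above 0 with quantile normalization (0.0052), without wild type replicate 3 (0.04) and without FAD replicate 2 (0.0014), and Tlr13 without FAD replicate 1 (0.0027). Their median was -0.11 and 0 of them passed the test (limma), with 0 at an unadjusted p under 0.05. Of the surface receptors 2 of 5 lay below 0, with a median of 0.01. In FAD DKO against FAD 2 of 5 endosomal and 4 of 5 surface receptors lay below 0 (46.7% of all genes), and in FAD DKO against wild type 4 of 5 and 2 of 5 (48.6% of all genes). The comparisons share arrays, the FAD arrays entering the first pair with opposite sign. Over all 10 members the median difference was -0.06 in FAD against wild type, -0.02 in FAD DKO against FAD and -0.07 in FAD DKO against wild type, where that of all genes was -0.01, 0.01 and 0.00. Of the 9 measured microglial markers 9, 4 and 7 lay below 0 in these comparisons, with medians of -0.09, 0.01 and -0.05, and 0 were called. In the last, 4 were lower at an unadjusted limma p under 0.05 (4.19% of all genes). How far the receptors go with these markers was not tested.

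Tlr13 had the clearest separation of FAD DKO. It read 9.75, 9.85 and 9.84 on the wild type arrays, 9.71, 9.89 and 9.74 on the FAD arrays and 9.57, 9.60 and 9.63 on the FAD DKO arrays. The 3 FAD DKO arrays lay below all 6 others. Taken singly, 6.5% of all genes lay below every FAD array and 6.15% below every wild type array. The share below both groups was not computed. The difference was -0.18 against FAD (SE 0.0704, limma unadjusted p = 0.0299, adjusted p = 0.548) and -0.21 against wild type (unadjusted p = 0.0144, adjusted p = 0.437), or 1.13-fold and 1.16-fold lower. Neither passed over all genes. Leaving out 1 array kept the first between -0.22 and -0.13 and the second between -0.25 and -0.19. FAD itself stood at -0.03 against wild type (95% interval from -0.19 to 0.13). The SD of Tlr13 within groups was 0.0659, at the 12.1 percentile of genes.

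Tlr3, which binds viral RNA duplexes and signals through Ticam1, read 9.80, 9.64 and 9.74 on the wild type arrays, 9.60, 9.59 and 9.55 on the FAD arrays and 9.65, 9.39 and 9.62 on the FAD DKO arrays. Its FAD arrays were below all wild type arrays, as for 5.46% of all genes, while FAD DKO overlapped both. The difference was -0.15 in FAD (adjusted p = 0.685) and -0.17 in FAD DKO (adjusted p = 0.655), each against wild type, and the latter was -0.09 without FAD DKO replicate 2. Tlr7, a receptor for RNA rich in uridine, read 10.21, 10.23 and 10.34 on the wild type arrays, 9.99, 10.20 and 10.12 on the FAD arrays and 10.25, 9.998 and 10.28 on the FAD DKO arrays. The FAD arrays again lay below all wild type arrays, by 10.20 against 10.21 at the nearest, and the difference of -0.16 did not pass (adjusted p = 0.688). It was -0.10 without FAD replicate 1. FAD DKO was spread across both groups, at -0.09 against wild type, which was -0.0016 without FAD DKO replicate 2, -0.05 without wild type replicate 3 and -0.14 without FAD DKO replicate 3.

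Tlr9, the receptor for unmethylated CpG DNA, read 9.50, 9.31 and 9.14 on the wild type arrays, 9.03, 9.32 and 9.28 on the FAD arrays and 9.16, 9.25 and 9.26 on the FAD DKO arrays. The wild type arrays alone spanned more than the other groups' means differed, and the differences from wild type were -0.11 in FAD (adjusted p = 0.827) and -0.09 in FAD DKO (adjusted p = 0.876). Without wild type replicate 3 they were -0.19 and -0.18, and without wild type replicate 1 they were -0.02 and -0.0036. The first was also -0.01 without FAD replicate 1 and -0.16 without FAD replicate 2. Tlr8, the neighbour of Tlr7 on the X chromosome, read 4.14, 4.30 and 4.39 on the wild type arrays, 4.24, 4.21 and 4.31 on the FAD arrays and 4.32, 4.40 and 4.31 on the FAD DKO arrays. It was the 1 member whose probe set was under the median level of all probe sets (5.35), at the 27.2 percentile, so its values carry little information on a change. The other 9 members lay at or above the 85.1 percentile, although levels of different probe sets cannot be ranked as amounts of transcript.

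**Figure D2:**
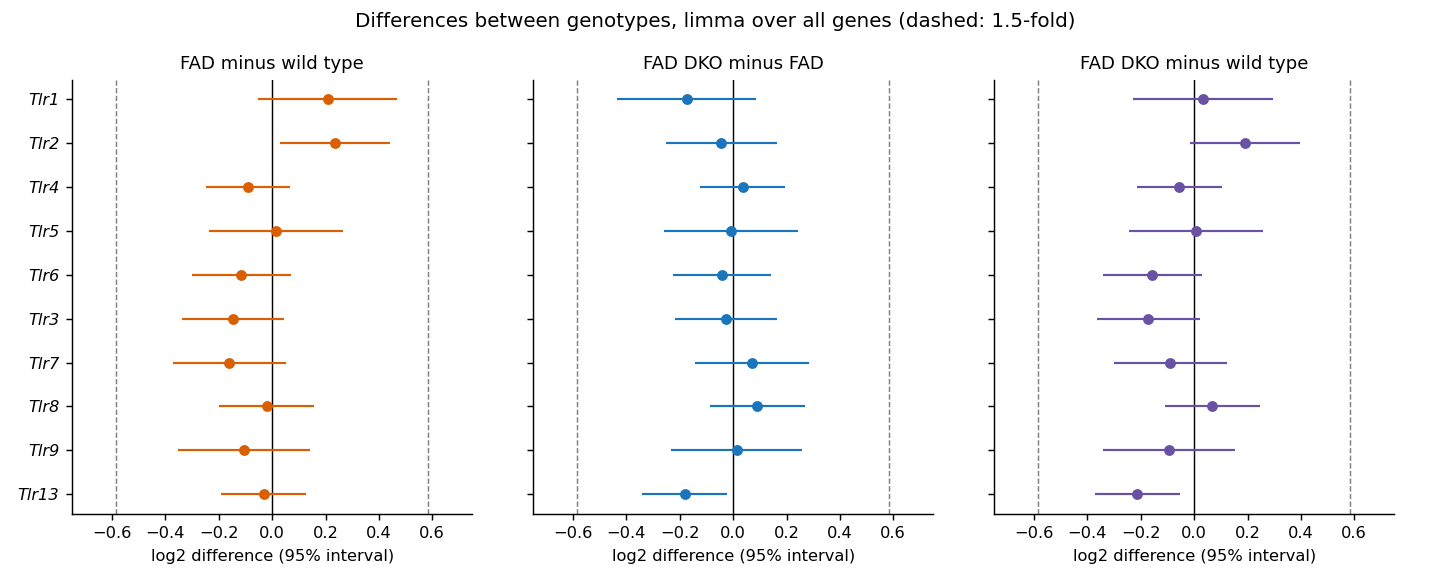
Points are the log2 differences of the 10 receptors in the 3 comparisons (horizontal axis, limma over all genes), bars their 95% intervals, and dashed lines mark 1.5-fold changes. All intervals lie between the dashed lines, and those clear of 0 belong to Tlr2 (FAD minus wild type) and Tlr13 (both comparisons of FAD DKO).

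No single array accounted for the extremes. Wild type replicate 1 was the highest array for 4 members and FAD replicate 2 for 3. Lows fell on 7 of the 9 arrays, with 2 each for wild type replicate 3, FAD replicate 1 and FAD DKO replicate 2. The last was lowest for Tlr3 and Tlr6 and highest for Tlr8.

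Genes whose standardised pattern over the 9 arrays was nearest to a member's were looked up for the 3 members with the smallest p. For Tlr13 they were Gdpd2, Plcg2 (phospholipase C gamma 2) and Rbms1, with root mean square differences of 0.24, 0.347 and 0.355 SD, where the median over all genes was 1.34. Plcg2 read 8.52, 8.57 and 8.48 on the wild type arrays, 8.44, 8.55 and 8.44 on the FAD arrays and 8.27, 8.27 and 8.37 on the FAD DKO arrays, so its FAD DKO arrays also lay below the other 6. Gdpd2 was under that median of 5.35, at 4.91. For Tlr2 they were the lysosomal galactosylceramidase Galc (0.256), Vps13c (0.258) and Dna2 (0.264). Galc read 7.36, 7.15 and 7.11 on the wild type arrays, 7.52, 8.00 and 7.45 on the FAD arrays and 7.39, 7.51 and 7.67 on the FAD DKO arrays. For Tlr3 the nearest were Amer3 (0.243), Adgrf2 (0.274) and Cpne9 (0.276), which had means of 4.47, 5.35 and 5.14, at or below the median of all probe sets. The nearest of 22180 genes are close by selection, and nothing was tested on them.

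The rest of the pathway was read from 7 lists of genes by role, of which 91 genes were measured. In FAD against wild type 0 of 91 were called (0.0406% of all genes). There 10 higher and 9 lower had an unadjusted p under 0.05 (4.41% and 4.02% of all genes). Between FAD DKO and FAD 0 were called (0.0225% of all genes). There 1 higher and 15 lower had an unadjusted p under 0.05 (3.69% and 4.41% of all genes), with a median difference of -0.06. The comparison of FAD DKO with wild type gave 1 call, Tnfaip3 (0.14% of all genes were called). There 6 higher and 17 lower had an unadjusted p under 0.05 (3.95% and 4.19%). The shares called over all genes also stand beside the calls per list below. These lists were drawn up with earlier results of these data known, and several genes were chosen as known targets. In FAD against wild type 6.37% of all genes were higher and 5.46% lower without overlap of the groups. The shares lower without overlap were 6.5% in FAD DKO against FAD and 6.15% in FAD DKO against wild type. They stand beside the separations of single genes given below, and none of them covers 3 groups at once.

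**Figure D3:**
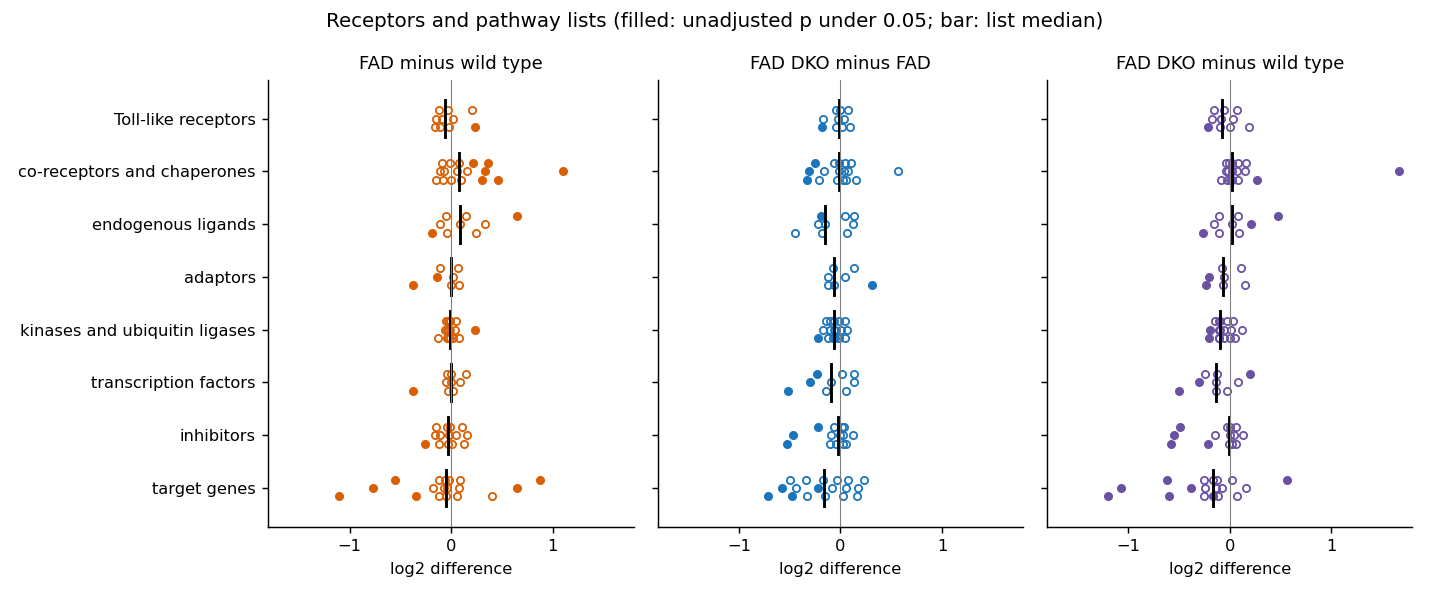
Each point is the log2 difference of 1 gene (horizontal axis) in 1 comparison, by role in the pathway, filled where the unadjusted limma p was under 0.05, with a bar at the list median. The receptors lie within 0.24 of 0 in every panel, while 1 co-receptor (Clec7a) lies beyond 1 in both comparisons with wild type, and target genes reach -1.10 in FAD and -1.20 in FAD DKO, each against wild type.

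Among 17 co-receptors and chaperones, 6 lay above wild type in FAD at an unadjusted p under 0.05, against 4.41% of all genes, and 0 were called. They were Ctsl, Msr1, Cd14, Cd180, Clec7a and Ctsb. Ctsl and Msr1 had the smallest p, with differences of 0.46 and 0.365 (limma adjusted p = 0.416 and 0.436). Msr1 had a mean of 4.795, under the median of all probe sets (5.35). Cd14, which hands lipopolysaccharide and lipoproteins to Tlr4 and Tlr2, read 9.65, 9.44 and 9.47 on the wild type arrays, 9.68, 9.93 and 9.95 on the FAD arrays and 9.73, 9.47 and 9.61 on the FAD DKO arrays. All FAD arrays were above all wild type arrays (difference 0.34, limma adjusted p = 0.478). FAD DKO stood at -0.25 against FAD (adjusted p = 0.59), with overlapping arrays. Cd180, a relative of Tlr4 that dampens its signal in macrophages, read 10.57, 10.38 and 10.37, then 10.69, 10.63 and 10.91, then 10.33, 10.39 and 10.52 in the same order of groups. FAD was the highest group, at 0.30 over wild type (adjusted p = 0.493), and FAD DKO was at -0.33 against it (adjusted p = 0.407).

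Clec7a, the beta-glucan receptor Dectin-1, which cooperates with Tlr2, had the widest difference of this list. It read 7.09, 6.80 and 6.46 on the wild type arrays, 7.09, 8.74 and 7.82 on the FAD arrays and 8.11, 8.81 and 8.44 on the FAD DKO arrays. FAD DKO was 1.67 above wild type (3.18-fold, limma adjusted p = 0.181) and FAD 1.10 above it (adjusted p = 0.506), neither of which passed, and FAD replicate 1 stood no higher than wild type replicate 1 at this precision. Clec7a is also a known gene of plaque-associated microglia. Genes that serve receptor transport and folding lay near 0. Unc93b1, which carries the endosomal receptors to their compartment, gave -0.09, 0.06 and -0.04 in FAD against wild type, FAD DKO against FAD and FAD DKO against wild type. The folding factors Hsp90b1 and Cnpy3 gave 0.05, -0.03 and 0.02, and -0.07, 0.08 and 0.00. Ly96, the partner of Tlr4, gave 0.08, -0.01 and 0.07.

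Of 7 adaptors 0 were called. Sarm1 had the widest differences in FAD against wild type (-0.38, limma adjusted p = 0.508) and in FAD DKO against FAD (0.31, adjusted p = 0.599). Its mean of 5.26 was under the median of all probe sets (5.35). Myd88, which serves every receptor here except Tlr3, read 6.86, 6.78 and 6.79 on the wild type arrays, 6.69, 6.65 and 6.66 on the FAD arrays and 6.62, 6.66 and 6.54 on the FAD DKO arrays. Both FAD groups lay below all wild type arrays, with log2 differences of -0.14 and -0.20 that did not pass (limma adjusted p = 0.592 and 0.404). Ticam1, the adaptor of Tlr3 and Tlr4, gave 0.07 and 0.11 in the same comparisons. Of 17 measured kinases and ubiquitin ligases 0 were called in any comparison, with 1, 1 and 2 at an unadjusted p under 0.05 in FAD against wild type, FAD DKO against FAD and FAD DKO against wild type (8.43%, 8.1% and 8.14% of all genes). Of 9 measured endogenous ligands 0 were called. The matrix protein Fn1 had the widest difference in FAD against wild type (0.65, adjusted p = 0.405).

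The inhibitors held the 1 call of the pathway. Tnfaip3, the ubiquitin-editing enzyme A20 that shuts off signalling to NF-kB, read 7.83, 7.82 and 7.87 on the wild type arrays, 7.61, 7.54 and 7.59 on the FAD arrays and 7.29, 7.46 and 7.31 on the FAD DKO arrays. The 3 groups did not overlap. Tnfaip3 fell by 0.49 on the log2 scale in FAD DKO against wild type (SE 0.0677, 1.4-fold, limma adjusted p = 0.0438). The adjusted p was 0.374 for FAD against wild type (-0.26) and 0.429 for FAD DKO against FAD (-0.22). Leaving out any 1 of the 9 arrays ended the call (adjusted p from 0.0641 to 0.169), as did quantile normalization (0.0631), the 2 groups alone (0.117) and the replicate number as a block (0.155), while the difference stayed between -0.54 and -0.46. Nfkbia, which holds NF-kB in the cytoplasm, read 9.35, 9.51 and 9.68 on the wild type arrays, 9.41, 9.35 and 9.44 on the FAD arrays and 8.96, 8.99 and 8.84 on the FAD DKO arrays. Its FAD DKO arrays lay below the other 6, at -0.58 against wild type (adjusted p = 0.0637, or 0.0186 once dim genes were left out) and -0.47 against FAD (adjusted p = 0.228).

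Early genes that are known to rise when cells are isolated lay low on the FAD DKO arrays as well. The mean of 10 such genes, centred per gene, was -0.04, 0.24 and 0.12 on the wild type arrays, 0.22, 0.09 and 0.18 on the FAD arrays, and -0.17, -0.20 and -0.44 on the FAD DKO arrays. Of these genes 8 of 10 were lower in FAD DKO than in FAD at an unadjusted p under 0.05 (4.41% of all genes). There 1 (Atf3) was called (0.0225% of all genes). Their part in the values of the inhibitors and target genes was not tested. The AP-1 subunits Jun and Fos stand on this list and among the 9 measured transcription factors, where 0 were called. Jun gave -0.30 and Fos -0.52 in FAD DKO against FAD (limma adjusted p = 0.382 and 0.438). Dusp1 and Zfp36 stand on the early gene list and among the inhibitors, at -0.53 and -0.04 in that comparison (adjusted p = 0.383 and 0.921). The counts of lower pathway genes given above therefore include early genes.

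Of 18 target genes 0 were called in any comparison, although some had an unadjusted p under 0.05. These were 2 higher and 4 lower in FAD against wild type (4.41% and 4.02% of all genes), 0 higher and 4 lower in FAD DKO against FAD (3.69% and 4.41%), and 1 higher and 6 lower in FAD DKO against wild type (3.95% and 4.19%). The chemokine Ccl3 read 11.17, 11.19 and 10.94 on the wild type arrays, 11.76, 11.80 and 11.68 on the FAD arrays and 11.20, 11.20 and 11.09 on the FAD DKO arrays. FAD was apart from both other groups, at 0.65 over wild type (limma adjusted p = 0.0524), and FAD DKO was at -0.58 against FAD (adjusted p = 0.159). Once dim genes were left out both passed (limma adjusted p = 0.0142 and 0.0458), as they did when the variance was modelled as trended and robust (0.00715 and 0.0293). Ccl5, a chemokine induced by interferon regulatory factors, read 8.32, 8.42 and 7.99 on the wild type arrays, 6.68, 7.40 and 7.34 on the FAD arrays and 6.91, 7.20 and 7.39 on the FAD DKO arrays. Both FAD groups lay below all wild type arrays, with log2 differences of -1.10 and -1.08 (adjusted p = 0.17 and 0.113). Cxcl10, another chemokine induced by interferon, read 7.37, 7.63 and 6.54 on the wild type arrays, 5.82, 6.51 and 6.92 on the FAD arrays and 5.88, 6.09 and 5.98 on the FAD DKO arrays. Its FAD DKO arrays lay below all wild type arrays, at -1.20 (adjusted p = 0.29), and the FAD arrays overlapped both groups. The monocyte chemoattractant Ccl2 was at -0.60 in FAD DKO against wild type (adjusted p = 0.111, or 0.0401 once dim genes were left out, which also gave 0.0437 for Ccl5), the cytokine Tnf at -0.62 (adjusted p = 0.536) and Il1b at 0.56 (adjusted p = 0.454). Ccl4 was at 0.87 in FAD against wild type and -0.72 in FAD DKO against FAD (limma adjusted p = 0.141 and 0.259). Il6 was at -0.55 in FAD and -0.38 in FAD DKO, each against wild type (limma adjusted p = 0.436 and 0.57). Ptgs2, Nos2, Il10, Il12b and Ifnb1 were under the median level of all probe sets, and their values carry little information on a change. The 4 lower genes counted in FAD against wild type include Il12b.

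**Figure D4:**
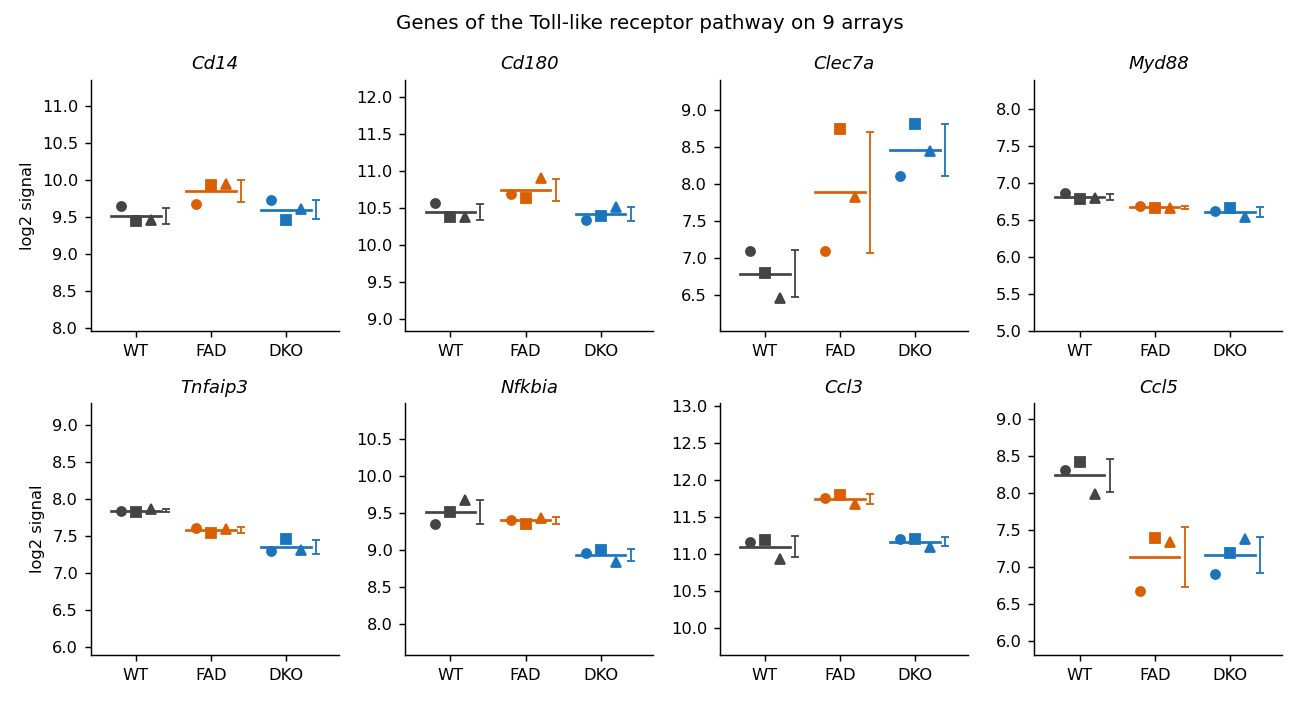
The log2 signal of 8 genes that act with or after the receptors (vertical axis, a window of 3.4 log2 units in each panel) is plotted by array, with circles, squares and triangles for replicates 1, 2 and 3, a line at the group mean and a bar of 1 SD (n = 3). The Tnfaip3 means were 7.84, 7.58 and 7.36 in the 3 groups, and FAD DKO against wild type passed the test. The FAD DKO arrays lie below the others for Nfkbia and the FAD arrays above the others for Ccl3, with adjusted p of 0.0637 (FAD DKO against wild type) and 0.0524 (FAD against wild type).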

How the data were processed

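Sorted microglia were measured on 9 one-colour arrays, 3 per genotype. The authors deposited log2 signals of probe sets that, per the submitters' processing notes, came from RMA, a method that corrects background, equalises array distributions and combines probes. That they are on a log2 scale was judged from their range. The RMA version, annotation and build are not given here. Of 41345 probe sets, 23521 had 1 gene symbol, 1814 several and 16010 none listed. Gene identifiers matched 23328 of them to the RefSeq table (GRCm38.p6), and 0 symbols changed. The brightest probe set stood for a gene, which left 22180 genes.

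The fit (limma 3.58.1, R 4.3.3, eBayes with neither trend nor robust option) took all 9 arrays with a mean per group and had 8.98 degrees of freedom after moderation. Tests were two-sided with Benjamini-Hochberg adjustment over all genes. On simulated data of 22180 genes with 200 changed (3 simulations), the fit of FAD against wild type recovered 56.2% of genes changed 1.5-fold and 89.1% of those changed 2-fold. For FAD DKO against FAD 53.7% of genes changed 1.5-fold were recovered. The simulated noise was independent between genes. With 200 changed genes the adjusted threshold is easier to pass than here, where 9, 5 and 31 genes were called. These shares therefore do not give the recovery in the data above. As the labels do not tie arrays to separate animals, the p-values reflect spread between samples that could be technical. The smallest SD of a difference between arrays was 0.335, so none was a copy.

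The members, lists and tests were chosen with earlier results of these data known. The rule named all members, called pathway genes and up to 3 per list and comparison with the smallest p (the text uses a part), the checks Hdac1, Hdac2 and Cx3cr1, and 3 genes nearest in pattern to each of 3 members. Genes outside it (Unc93b1, Hsp90b1, Cnpy3, Ly96, Tnf, Il1b, Il6) are given for their role, after their values were seen, and dim target genes are named without values. Zfp36, also outside it, is given as a gene on both the inhibitor list and the early gene list. Protein sequences were not used here. The alternatives were leaving out each array, the replicate number as a block, averaged probe sets, array weights, fits of only the 2 groups compared, a variance model with trend and robust options, quantile normalization and a low-signal filter. Plots used matplotlib 3.10.9 in Python 3.11.15.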

Additional observations from a re-analysis of the deposited data

How the results depend on the processing

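In limma, 0 of the 10 receptors were called in any of the 3 comparisons under any of the 16 alternatives, and the lowest adjusted p of a member was 0.198 (Tlr13, FAD DKO against wild type, trended and robust variance). The low-signal filter did not test Tlr8. Of 207 differences of members under alternatives that kept all arrays, 199 kept their direction. With quantile normalization Tlr5 turned to -0.0084 and Tlr8 to 0.0052 in FAD against wild type, and Tlr3 to 0.0049 and Tlr5 to 0.0199 in FAD DKO against FAD. With array weights Tlr5 turned to -0.018 in FAD against wild type and -0.022 in FAD DKO against wild type, and Tlr3 to 0.0098 and Tlr9 to -0.00078 in FAD DKO against FAD. Of 270 differences without 1 array 250 kept their direction. The ranges of the members that turned were, in FAD against wild type, -0.0667 to 0.0819 for Tlr5, -0.0885 to 0.0364 for Tlr8 and -0.0849 to 0.00266 for Tlr13. For FAD DKO against FAD they were -0.0952 to 0.0228 for Tlr2, -0.0719 to 0.0563 for Tlr3, -0.0186 to 0.0685 for Tlr4, -0.0872 to 0.0808 for Tlr5, -0.0746 to 0.0248 for Tlr6 and -0.0789 to 0.0671 for Tlr9. For FAD DKO against wild type they were -0.0744 to 0.0952 for Tlr1 and -0.0754 to 0.0953 for Tlr5. The causes were not tested.

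With the replicate number as a block 0 receptors were called in each comparison (lowest adjusted p 0.512), and the calls over all genes went from 9 to 8, from 5 to 2 and from 31 to 11 in FAD against wild type, FAD DKO against FAD and FAD DKO against wild type. Same-numbered arrays correlated between -0.11 and 0.122 in their deviations from group means, and 3 of 9 arrays correlated best with their own number, so the numbers were not taken as pairs.

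In the same order of comparisons, calls over all genes numbered 33, 11 and 117 with the low-signal filter, 43, 12 and 124 with trended and robust variance, 22, 5 and 82 with array weights, 5, 0 and 13 with only the 2 groups compared and 10, 3 and 33 with quantile normalization. They ranged from 8 to 12, 0 to 5 and 2 to 28 without 1 array. In FAD DKO against wild type the low-signal filter and the trended and robust variance each called 4 pathway genes (Ccl2, Ccl5, Nfkbia and Tnfaip3), and both called Ccl3 in the other comparisons. The trended and robust variance also called Ccl4 in FAD against wild type (0.87, limma adjusted p = 0.0486, against 0.141 in the main fit). Array weights called Ccl3 in FAD against wild type, and Nfkbia and Tnfaip3 in FAD DKO against wild type. Averaged probe sets called Tnfaip3 in the latter. How far a signal stands above background was not analysed.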

Other observations

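Of the deposited values, 49.4% of probe sets repeated a value exactly on at least 2 of the 9 arrays, and 3 of the 10 receptors did so (Tlr4, Tlr6 and Tlr8).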
